A study of Rattus norvegicus and Bos taurus with 6 samples.

Results

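Subcutaneous white adipose tissue (WAT) of the cow was compared, gene by gene, with the white fats of the rat that were processed on the same platform. Of the 6 single-nucleus RNA-seq libraries of the series, 3 entered the comparison, which were cow WAT, rat mesenteric perivascular adipose tissue (mesPVAT) and rat retroperitoneal (RP) fat. Genes were joined by equal symbol in any case, which gave 15240 symbols present in both species. Unique molecular identifiers (UMIs, each standing for 1 captured transcript) were summed over nuclei and scaled to the library total on shared symbols (CPM). The 11054 symbols (72.5%) with at least 100 UMIs in the 3 libraries together were compared, and a gene was said to lie above or below both rat white libraries where the cow level was at least 2-fold beyond the nearer of them. A count under 3 UMIs was set to 3 in the library divided by.

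The study optimized nuclei isolation from fat for single-nucleus sequencing. The cow tissue came from the flank of lactating female Holstein dairy cows early in lactation, on a common lactation diet, and the rat tissues came from male Dahl SS rats (SS/HsdMcwiCrl) on a normal diet, all labelled as free of disease and snap frozen. Beside these, the same rat strain gave perivascular fat of the thoracic aorta (taPVAT) and brown fat from the subscapular depot (BAT) on Parse. It also gave mesPVAT on the 10x Genomics platform, labelled as another batch. By the study's supplement, nuclei for 10x were isolated with another protocol and sorted after staining with DAPI, so more than the platform differed. Each tissue was 1 library, and how many animals entered a library is not stated in the sources used here, so no test between tissues was made. Species, sex, depot, diet, genome annotation and depth differed together, as did a last, finer filter used for cow nuclei only, and these cannot be told apart.

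White adipocytes store triglyceride made from fatty acids that they take up from lipoproteins or synthesize themselves, and release fatty acids by lipolysis under the control of catecholamines and insulin. In ruminants, adipose tissue is a principal site of fatty acid synthesis, with acetate from rumen fermentation as the main carbon source. Early lactation is a period of fat mobilization in dairy cows. Beside adipocytes, the tissue holds stromal progenitors, endothelial cells, mural cells and macrophages.

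Cow WAT was the most deeply covered library, with 12163729 UMIs on shared symbols in 2297 nuclei, against 1180134 in 3028 nuclei for mesPVAT and 553086 in 2805 nuclei for RP fat. That came to 5295 UMIs per nucleus in cow WAT, 389.7 in mesPVAT and 197 in RP fat. A single UMI was worth 0.0822 CPM in cow WAT, 0.847 CPM in mesPVAT and 1.81 CPM in RP fat, so the rat values set the precision. In cow WAT, 233 nuclei with more than 15000 UMIs, which the study's own filter would drop, held 47.3% of the UMIs. No barcode was shared between libraries, and doublets were not removed here. Intervals are exact 95% Poisson intervals for CPM and binomial-based intervals for ratios, and cover counting error only. Animal ages are not given in the sources used here. The study's text orders mesPVAT and RP fat by UMIs per nucleus the other way round from the files, and whether their labels were exchanged was not tested. If they were, every value given for either would belong to the other, while no call against both would change.

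Adipocyte genes were present in all 3 libraries. In the study's annotation, adipocytes were a small share of cow nuclei but formed the largest group in its other depots. Pooled sums do not give cell shares. The 13 joined adipocyte markers summed to 5792 CPM in cow WAT, 6087 in mesPVAT and 2502 in RP fat, with no marker at 0. Among them, LPL, the lipoprotein lipase that frees fatty acids from circulating triglyceride, had 364 CPM in cow WAT, 489.8 in mesPVAT and 338 in RP fat. FABP4, the main fatty acid binding protein of adipocytes, had 369 CPM in cow WAT, 347 in mesPVAT and 177 in RP fat. Of the 13 markers, 3 (DGAT2, GPAM and AQP7) lay above both rat white libraries and 1 (PLIN1) below. Over all genes, 12.0% lay above and 20.6% below. The sums thus combine markers that went opposite ways, and their likeness in cow WAT and mesPVAT does not hold for each marker. ADIPOQ, PPARG and CD36 could not be joined by symbol.

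Fewer genes lay above both rat white libraries than below them. In cow WAT, 1325 of 11054 genes lay above both (12.0%) and 2278 below both (20.6%), while 7451 did neither. With the 3-count limit in RP fat, a gene above both needs more than 100 UMIs in cow WAT, whereas a gene below both can pass on its rat UMIs, so the minimum bears on the directions unequally. Differences of at least 10-fold were found for 32 genes above and 154 below. Between the rat white libraries themselves, 666 genes (6.02%) were at least 2-fold higher in mesPVAT and 927 (8.39%) at least 2-fold higher in RP fat. The median log2 ratio of cow WAT to the rat white mean was -0.09 over all genes. In each sublibrary taken alone, the 2-fold rule was applied without the 3-count limit, which is looser where counts are few. Both sublibraries then passed it for 72.4% of the genes above and 81.9% of the genes below. The split between directions depended on which genes were admitted. With a minimum of 300 UMIs, 1200 of 7634 genes lay above and 992 below, and the median log2 ratio was 0.19.

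**Figure D1:**
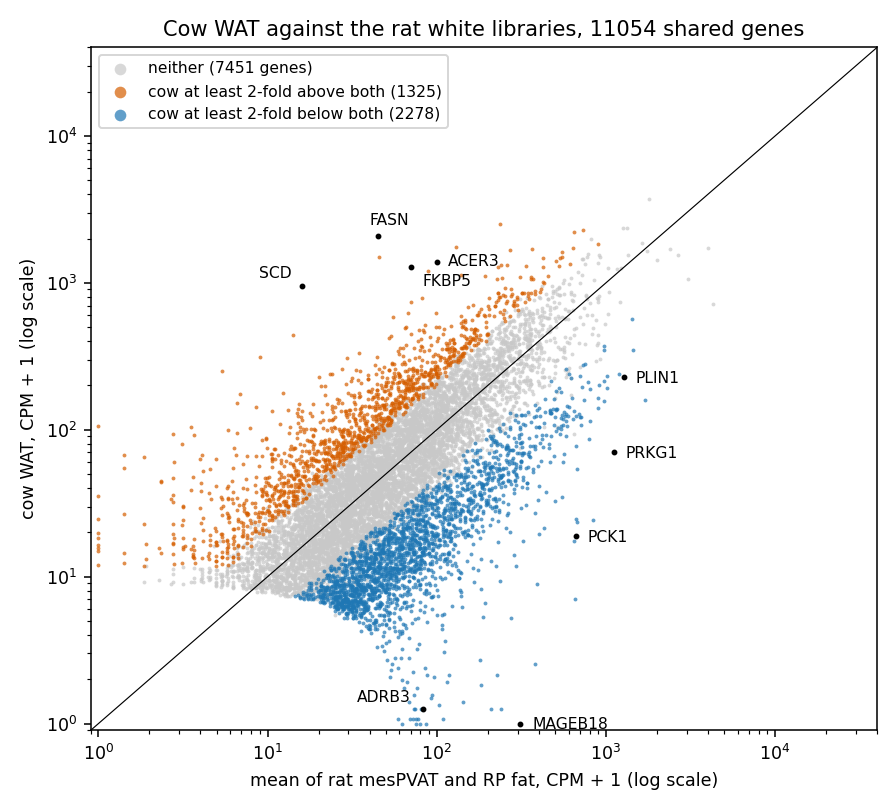
Each point is 1 of the 11054 genes, with the mean level of rat mesPVAT and RP fat on the x axis and the cow WAT level on the y axis, both as CPM + 1 on log scales, and the line marks equal levels. FASN, SCD, FKBP5 and ACER3 lay far above the line, and PLIN1, PRKG1, PCK1, ADRB3 and MAGEB18 far below it; the slanted lower left edge is the minimum of 100 UMIs.

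The other rat libraries separated the directions further. Of the genes above both, 65.6% also lay above both taPVAT and BAT, whereas 32.4% of the genes below both also lay below taPVAT and BAT. Against mesPVAT on 10x, 815 of 1304 genes above (62.5%) and 679 of 2232 genes below (30.4%) kept their side. Cow WAT lay above all 4 rat Parse libraries for 869 of 11054 genes (7.86%) and below all 4 for 738 (6.68%). It lay above all 5 rat libraries for 646 of 10852 genes (5.95%) and below all 5 for 458 (4.22%).

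Genes of fatty acid synthesis lay above the rat white libraries more often than below them. Of the 19 tested members of de novo lipogenesis, 10 lay above both and 2 below, beside 12.0% and 20.6% of all genes, and their median log2 ratio was 1.42 against -0.09 over all genes. FASN, the fatty acid synthase, had 2073 CPM in cow WAT, 44.1 in mesPVAT and 43.4 in RP fat, which was 47.0-fold (95% interval 35.9 to 63.0) above the nearer rat library. ACACA, the acetyl-CoA carboxylase that makes malonyl-CoA in the cytosol, had 2507 CPM in cow WAT, 217 in mesPVAT and 255 in RP fat, a difference of 9.84-fold (95% interval 8.34 to 11.7). SCD, the desaturase that makes oleate, had 949 CPM in cow WAT, 11.9 in mesPVAT and 18.1 in RP fat. In all 3 genes the cow level lay far outside the range between the rat white libraries.

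The enzymes that supply acetyl-CoA were also higher in cow WAT. ACSS2, which activates acetate, had 618 CPM in cow WAT, 59.3 in mesPVAT and 74.1 in RP fat, and ACLY, which releases acetyl-CoA from citrate, had 625 CPM in cow WAT, 101 in mesPVAT and 95.8 in RP fat. The elongase ELOVL6 had 513, 66.1 and 101 CPM in cow WAT, mesPVAT and RP fat, and ELOVL5 219, 70.3 and 66.9 CPM. INSIG1, the sterol-regulated retention factor, had 122, 13.6 and 14.5 CPM, and the citrate carrier SLC25A1, a thinly counted gene, had 15.6, 6.78 and 3.62 CPM.

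Other members lay below or level. ACACB, the mitochondrial acetyl-CoA carboxylase whose product restrains fatty acid oxidation, had 12.1 CPM in cow WAT, 166 in mesPVAT and 195 in RP fat, and was 13.7-fold (95% interval 11.0 to 17.1) lower in cow WAT than in the nearer rat library. FADS2, a desaturase of polyunsaturated fatty acids, had 5.51, 21.2 and 28.9 CPM, but did not lie below mesPVAT on 10x. The lipogenic transcription factor SREBF1 differed less, at 102, 119 and 95.8 CPM. MLXIPL could not be joined.

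The brown rat libraries were nearer to cow WAT in several of these genes. FASN had 934 CPM in taPVAT and 543 in BAT, ACLY 487 CPM in taPVAT and 408 in BAT, and ACSS2 369 CPM in taPVAT and 511 in BAT. FASN, ACACA, ELOVL6 and SCD lay above all 5 rat libraries, while ACLY, ACSS2, ELOVL5 and SLC25A1 did not lie above both brown libraries, and INSIG1 did not lie above mesPVAT on 10x, where it had 347 CPM. SCD was an exception among the platforms, with 5.10 CPM in taPVAT and 3.70 in BAT but 184 CPM in mesPVAT on 10x. The rat paralogs Scd2 and Scd4 had 13.6 and 14.4 CPM in mesPVAT and 19.9 and 25.3 CPM in RP fat, and the cow symbol SCD5 had 76.0 CPM. How reads were shared among near-identical copies was not tested.

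Nuclei with many UMIs carried much of the lipogenic signal. Of the cow UMIs, 76.4% of FASN, 77.2% of ACACA and 79.9% of ACLY lay in nuclei with more than 15000 UMIs, against a median of 48.3% over all genes. With the study's fixed filters on nuclei, which remove them, FASN lay 21.2-fold, SCD 29.3-fold and ACACA 4.57-fold above the nearer rat library, and 9 of the 10 genes still lay above both, ELOVL5 being the exception. In these pooled sums, fewer cells of a type and less RNA per cell cannot be told apart.

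Because these genes were higher together, rat promoters from RefSeq (GRCr8) were read, and 10 of the 16 lipogenic and triglyceride genes above both matched by symbol. The 250 bases before a transcript start are shown 5′ to 3′ on the strand of the gene, for the 2 genes that hold an E-box, CACGTG, and for Gpam. Capitals mark matches on either strand of the E-box, of the CCAAT box or of the GC box, GGGCGG.
Insig1 (chr4:8057770-8058019, minus strand): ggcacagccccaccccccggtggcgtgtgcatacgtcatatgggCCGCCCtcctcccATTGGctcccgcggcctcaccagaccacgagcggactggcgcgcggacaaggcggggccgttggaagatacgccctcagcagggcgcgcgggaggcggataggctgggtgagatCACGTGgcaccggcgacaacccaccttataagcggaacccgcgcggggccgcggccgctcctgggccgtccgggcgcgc
Elovl5 (chr8:87670914-87671163, plus strand): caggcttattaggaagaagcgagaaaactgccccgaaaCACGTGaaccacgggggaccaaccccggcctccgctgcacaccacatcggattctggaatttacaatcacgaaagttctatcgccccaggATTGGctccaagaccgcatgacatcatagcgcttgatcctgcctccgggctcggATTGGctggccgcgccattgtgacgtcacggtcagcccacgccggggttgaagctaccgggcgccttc
Gpam (chr1:264175912-264176161, minus strand): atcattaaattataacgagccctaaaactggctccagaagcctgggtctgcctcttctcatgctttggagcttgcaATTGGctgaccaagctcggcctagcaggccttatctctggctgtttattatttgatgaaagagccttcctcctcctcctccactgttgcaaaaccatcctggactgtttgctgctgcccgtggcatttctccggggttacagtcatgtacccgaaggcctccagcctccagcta

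Over the 10 promoters, the CCAAT box was found in 8, the GC box in 6 and the E-box in 2, against 34.0%, 30.5% and 5.59% of all 33469 rat promoters of this length. The sterol regulatory element TCACNCCAC was found in none of the 10 and in 0.974% of all promoters. Insig1, Elovl5 and Gpam each hold a CCAAT box. These matches describe the letters of the window only.

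Of the 22 tested members of fatty acid uptake and triglyceride synthesis, 6 lay above both and 5 below, where 12.0% and 20.6% of all genes did and the share below was near that background, with a median log2 ratio of 0.56. GPAM, the mitochondrial acyltransferase that starts glycerolipid synthesis, had 1754 CPM in cow WAT, 167 in mesPVAT and 90.4 in RP fat, 10.5-fold (95% interval 9.13 to 12.2) above the nearer rat library and 3.92-fold with the study's filters on nuclei. DGAT2, which adds the last acyl chain, had 782 CPM in cow WAT, 103 in mesPVAT and 57.9 in RP fat, but lay 2.88-fold above the nearer rat library with the study's filters and less than 2-fold above each of taPVAT, BAT and mesPVAT on 10x. Its counterpart DGAT1 had the reverse order, with 33.2 CPM in cow WAT, 148 in mesPVAT and 81.4 in RP fat. LPIN1, the phosphatidate phosphatase, had 791, 221 and 181 CPM, but no longer lay above both with those filters. FABP5, a fatty acid binding protein also found in macrophages and endothelium, had 111, 24.6 and 14.5 CPM, and lay above all 5 rat libraries.

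Several genes of fatty acid supply were lower in cow WAT. PCK1, whose product feeds glycerol 3-phosphate for re-esterification, had 17.8 CPM in cow WAT, 979 in mesPVAT and 353 in RP fat, and was 19.9-fold (95% interval 16.3 to 24.2) lower in cow WAT. It lay at 2664 CPM in taPVAT and 3587 in BAT, and at 2952 CPM in mesPVAT on 10x, so cow WAT was below all 5 rat libraries. ANGPTL4, an inhibitor of lipoprotein lipase, had 12.9, 131 and 75.9 CPM, and GPIHBP1, the capillary anchor of that lipase, had 9.13, 72.0 and 38.0 CPM. The long-chain fatty acid transporter SLC27A6 had 12.1, 33.9 and 57.9 CPM, but did not lie below all 4 rat Parse libraries. Neither SLC27A6 nor GPIHBP1 lay below mesPVAT on 10x.

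Of 20 tested members of lipolysis and its control, 2 lay above both and 5 below, which is near the 12.0% and 20.6% of all genes. The 5 genes below also lay below all 5 rat libraries, and receptors that start lipolysis were among them. ADRB3, the adipocyte β3-adrenergic receptor of rodents, had 3 UMIs in cow WAT (0.247 CPM), against 107 CPM in mesPVAT and 56.0 in RP fat, a ratio of 227-fold (95% interval 70.9 to 1162). It had 229 CPM in mesPVAT on 10x, 396 CPM in taPVAT and 429 in BAT. ADRB1, the β1-adrenergic receptor, had 6.99, 70.3 and 101 CPM.

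Proteins downstream of the receptors differed in part. PLIN1, which coats the lipid droplet and gates the lipases, had 227 CPM in cow WAT, 1807 in mesPVAT and 730.4 in RP fat. PRKAR2B, a regulatory subunit of protein kinase A, had 77.0, 321 and 165 CPM, and NPR3, the natriuretic peptide clearance receptor, had 10.1, 276 and 74.1 CPM. The lipases themselves lay within 2-fold of a rat white library, with 313, 529 and 199 CPM for LIPE and 105, 166 and 132 CPM for PNPLA2. AQP7, the glycerol channel, lay above both with 169, 44.9 and 41.6 CPM, but not with the study's filters on nuclei.

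**Figure D2:**
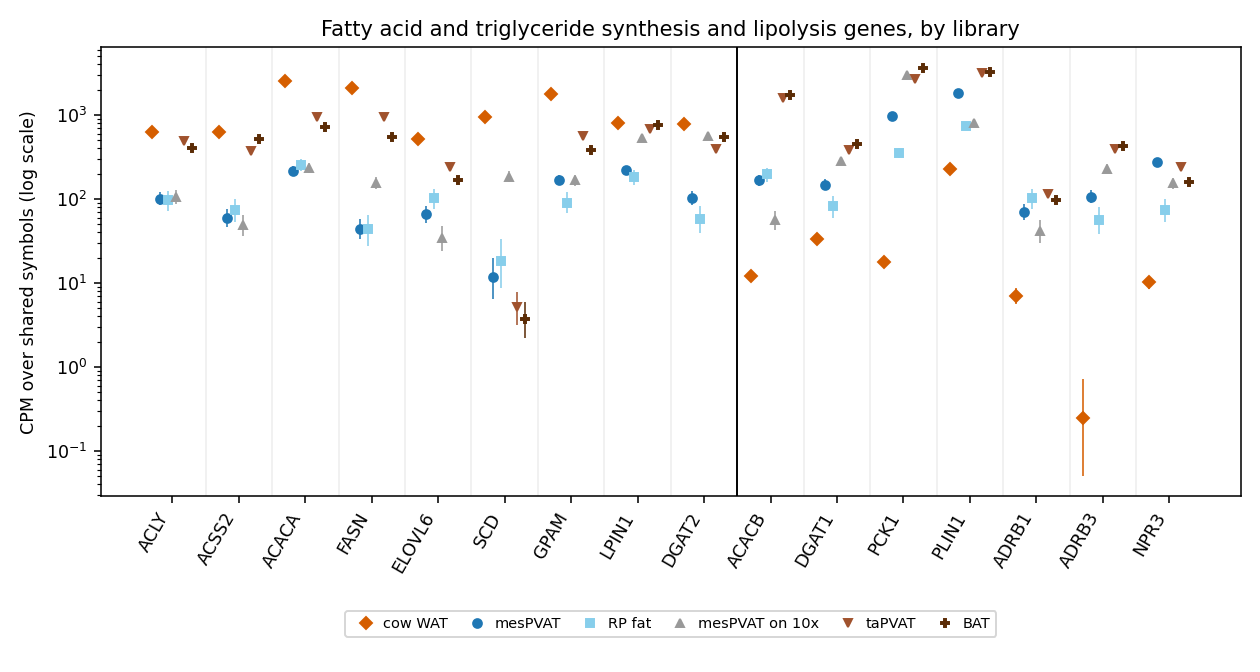
Levels of 16 lipid genes in each of the 6 libraries, as CPM over shared symbols on a log scale, with exact 95% Poisson intervals as bars where they are wider than the symbol. To the left of the black line the cow WAT diamonds lie above mesPVAT and RP fat, from 513 CPM for ELOVL6 to 2507 for ACACA, and to the right of it they lie below, down to 0.247 CPM for ADRB3.

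Short chain fatty acid and ketone genes partly shared the lipogenic pattern, and ACSS2 is a member of both lists, so their counts are not separate. Of 14 tested members, 5 lay above both and 1 below, beside 12.0% and 20.6% of all genes. The median log2 ratio was 0.72. SLC16A7, a monocarboxylate transporter, had 495 CPM in cow WAT, 53.4 in mesPVAT and 74.1 in RP fat, and lay above all 5 rat libraries. ACSS3, a mitochondrial acyl-CoA synthetase for short chains, had 314, 149 and 125 CPM, PCCB of propionyl-CoA carboxylase 97.2, 26.3 and 41.6 CPM, and ACAT1 of ketone use 159, 61.9 and 61.5 CPM, and these 3 did not lie above both with the study's filters on nuclei. Among 18 cholesterol genes, 2 lay above both (FDFT1 and ABCA1) and 1 below (ABCG1), shares no higher than those over all genes, and with the study's filters on nuclei FDFT1 and ABCG1 lost the call.

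Genes that respond to glucocorticoids included some of the farthest above. Of 19 tested members of the steroid and glucocorticoid list, 6 lay above both and 4 below, beside 12.0% and 20.6% of all genes. The share below was near that background, and the median log2 ratio was 0.46. FKBP5, a co-chaperone of the glucocorticoid receptor induced by its ligand, had 1285 CPM in cow WAT, 72.0 in mesPVAT and 66.9 in RP fat, 17.8-fold (95% interval 14.4 to 22.4) above the nearer rat library, and at most 47.0 CPM in the other rat libraries. ZBTB16, a zinc finger factor also induced by glucocorticoids, had 1673 CPM in cow WAT, 291 in mesPVAT and 248 in RP fat and lay above all 5 as well. TSC22D3, a glucocorticoid-induced leucine zipper protein, had 94.2, 7.63 and 3.62 CPM, but 85.1 CPM in mesPVAT on 10x. The clock gene PER1 had 139, 22.0 and 47.0 CPM.

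The receptors themselves differed less or in opposite directions. NR3C1, the glucocorticoid receptor, had 498, 353 and 208 CPM, which was under 2-fold from mesPVAT. HSD11B1, which regenerates active glucocorticoid, was lower in cow WAT at 20.9, 54.2 and 70.5 CPM. Of the thyroid hormone receptors, THRB lay above both with 1321, 222 and 253 CPM and THRA below both with 49.2, 166 and 127 CPM. THRB and PER1 did not lie above both brown libraries. ESR2 and the vitamin D receptor VDR lay below, with 6.33, 83.0 and 105 CPM and 13.6, 41.5 and 47.0 CPM. Like HSD11B1, they did not lie below mesPVAT on 10x. HSD17B12, of fatty acid elongation and steroid metabolism, had 253, 89.8 and 103 CPM, and did not lie above both with the study's filters on nuclei. In the circadian clock list, 2 of 17 lay above (PER1 and CRY1) and 2 below, shares no higher than the 12.0% and 20.6% of all genes. Those below were NPAS2 with 32.9, 193 and 233 CPM and RORA with 114, 794 and 810.0 CPM.

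Of the 12 genes farthest above both by the counting interval, 6 belong to no gene list here. ACER3, an alkaline ceramidase, had 1384 CPM in cow WAT, 94.1 in mesPVAT and 103 in RP fat, with 75.0 CPM in taPVAT and 80.8 in BAT. SNRPN, an imprinted small nuclear ribonucleoprotein gene, had 250.5 CPM in cow WAT, against 6 UMIs in mesPVAT and 2 in RP fat. ACER3 had 63.6 CPM in mesPVAT on 10x, and the UMIs of SNRPN in the rat white libraries are too few to order them.

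The others were of macrophage or metabolic kinds. VSIG4, a complement receptor of resident macrophages, had 314, 5.08 and 10.8 CPM. COL8A1, a short-chain collagen from the collagen list, had 151, 7.63 and 3.62 CPM. CYP7B1, the oxysterol hydroxylase, had 176, 11.9 and 10.8 CPM. PID1, an adaptor that binds phosphotyrosine, had 439, 11.9 and 14.5 CPM, yet 409 CPM in mesPVAT on 10x, and so did not lie above that library. The other 11 of the 12 lay above all 5 rat libraries.

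Cell type markers differed together with these genes. Of 13 macrophage markers, 8 lay above both and 0 below, beside 12.0% and 20.6% of all genes. The list summed to 1997 CPM in cow WAT, 719 in mesPVAT and 855 in RP fat. CD163, a scavenger receptor, had 358, 55.9 and 68.7 CPM, CSF1R, the receptor for macrophage colony stimulating factor, 227, 55.1 and 85.0 CPM, and MSR1 192, 52.5 and 52.4 CPM. CD68 and SPP1 had 46.2 and 59.4 CPM in cow WAT, against at most 2 UMIs in each rat white library. MRC1, by contrast, was level at 104, 109 and 81.4 CPM.

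Stromal progenitor markers lay above more often than vascular markers. Of 12 stromal markers, 7 lay above both, beside 12.0% of all genes. The list summed to 6406, 2772 and 3054 CPM in cow WAT, mesPVAT and RP fat. FBN1, a microfibril protein, had 1611, 575 and 519 CPM, MFAP5 181, 27.1 and 48.8 CPM and CD34 102, 13.6 and 27.1 CPM, while DPP4, a marker of early progenitors, lay below with 15.5, 50.8 and 70.5 CPM. With mesPVAT on 10x added, 2 of the 7 stayed above (MFAP5 and CD34), and FBN1, DCN, LUM, COL1A2 and COL3A1 did not. Of 12 endothelial markers, VWF (473, 131 and 197 CPM) and CYYR1 (605, 192 and 188 CPM) lay above and none below, and PECAM1 had 345, 306 and 193 CPM. Of 11 pericyte and smooth muscle markers, none lay above and 2 below (MYH11 and CSPG4), the share below being near the 20.6% of all genes.

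Markers of the other cell types lay below or between, where 20.6% of all genes lay below both and 12.0% above. Lymphatic endothelial markers lay below both for 4 of 6 tested, lymphocyte markers for 4 of 9, mesothelial markers for 2 of 2, Schwann cell and nerve markers for 4 of 5 and striated muscle markers for 3 of 4, and none of these lists had a member above. WT1, a transcription factor of mesothelium and visceral fat progenitors, had 4.28, 66.9 and 50.6 CPM, and 339.6 CPM in mesPVAT on 10x. The T cell genes CD247 and THEMIS had 7.15, 39.8 and 56.0 CPM and 25.3, 103 and 136 CPM, but 0.979 and 7.83 CPM in mesPVAT on 10x. Of all these markers, S100B alone lay below all 5 rat libraries. With the study's filters on nuclei, S100B, NCAM1, BANK1 and GPM6A did not lie below both. With taPVAT and BAT added, none of the lymphatic, lymphocyte or mesothelial markers stayed below. Of the Schwann cell and nerve markers 2 of 4 stayed below, and of the striated muscle markers 2 of 3. The 7 joined lymphatic markers summed to 160 CPM in cow WAT, 467 in mesPVAT and 832 in RP fat, but 133 in taPVAT and 78.2 in BAT. Pancreatic acinar markers summed to 12.4, 41.5 and 52.4 CPM with no member past the minimum, and of the erythroid and platelet markers 1 was tested and lay between. What part these markers had in the other results was not tested.

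The matrix and stromal lists share FBN1, DCN and LUM, and the collagen and stromal lists share COL1A2 and COL3A1, so their counts are not separate. Of 36 laminins, integrins and other matrix genes, 9 lay above both and 4 below, beside 12.0% and 20.6% of all genes. The median log2 ratio was 0.68. VCAN, the large proteoglycan of loose matrix, had 376, 56.8 and 72.3 CPM, FN1 457, 160.2 and 170.0 CPM and ABI3BP 589, 164 and 219 CPM. Of 27 collagens, 4 lay above and 6 below, near the 12.0% and 20.6% of all genes. COL6A3, a collagen VI chain abundant in fat, had 1071 CPM in cow WAT, 262 in mesPVAT and 222 in RP fat and lay above all 5 rat libraries, while COL4A3, a basement membrane chain, lay below all 5 with 15.0, 105 and 95.8 CPM.

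Angiogenic ligands and receptors lay on both sides. Of 27 tested, 6 lay above both and 4 below, beside 12.0% and 20.6% of all genes, so the share below was under that background. VEGFA, the main endothelial growth factor, had 162 CPM in cow WAT, 647 in mesPVAT and 339.9 in RP fat, and 1951 CPM in taPVAT and 1784 in BAT. VEGFD, a ligand of the lymphatic receptor FLT4, lay above all 5 rat libraries with 108, 14.4 and 7.23 CPM, while FLT4 itself lay below both with 16.8, 67.8 and 123 CPM, though neither below all 4 rat Parse libraries nor below mesPVAT on 10x. PDGFC and FGF2 lay above all 5, with 353, 94.9 and 128 CPM and 116, 40.7 and 41.6 CPM, FGF2 no longer above both with the study's filters on nuclei.

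Most genes of insulin signalling lay within the rat range or less than 2-fold beyond it. Of 24 genes, 5 lay above both and 1 below, beside 12.0% and 20.6% of all genes. INSR, the insulin receptor, had 218, 186 and 217 CPM. PIK3CA, a catalytic subunit of phosphoinositide 3-kinase, had 203, 54.2 and 32.5 CPM, and the transcription factor FOXO1 had 410.2, 108 and 137 CPM. With mesPVAT on 10x added, 1 of the 5 stayed above, and PIK3CA and FOXO1 did not. GRB14, an adaptor that inhibits the insulin receptor, had 11.8, 108 and 121 CPM and lay below all 5 rat libraries. SLC2A4, the insulin-sensitive glucose transporter, was low in all 3 libraries at 9.13, 5.08 and 7.23 CPM.

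The growth hormone, prolactin and IGF axis had 4 of 17 members above and 4 below, beside 12.0% and 20.6% of all genes. The share below was near that background. GHR, the growth hormone receptor, had 1414, 681 and 325 CPM, just past 2-fold and not so with the study's filters on nuclei, and JAK2, its kinase, had 199, 46.6 and 45.2 CPM. Their target IGF1 lay below all 5 rat libraries with 62.2, 283 and 172 CPM, as did SOCS2, an inhibitor of growth hormone signalling, with 7.23, 68.6 and 66.9 CPM, and the prolactin receptor PRLR, with 9.37, 105 and 134 CPM. IGF2 lay above all 5 with 72.4, 15.3 and 10.8 CPM.

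Among 14 adipokines and receptors, 2 lay above both and 4 below, beside 12.0% and 20.6% of all genes. Those above were RARRES2, 2.07-fold above the nearer rat white library, and SFRP5, 2.79-fold above it. RARRES2 lay neither above both brown libraries nor above mesPVAT on 10x. SFRP5 lay above all 5 rat libraries, but only 1.46-fold above the nearer rat white library with the study's filters on nuclei. LEP, leptin, had 54.7, 113 and 21.7 CPM, and so lay between the rat white libraries. CFD, adipsin, had 2.30, 48.3 and 38.0 CPM, with 862 CPM in mesPVAT on 10x. AGT, angiotensinogen, had 5.43, 41.5 and 48.8 CPM, and NRG4, an adipokine of brown fat, 13.8, 78.8 and 85.0 CPM. CFD was also among the 5 of 16 complement genes below both, with 1 above, SERPING1.

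In the nitric oxide and renin-angiotensin list, which holds genes of vascular tone, 2 of 17 lay above both and 8 below, beside 12.0% and 20.6% of all genes, and with the study's filters on nuclei 5 of the 8 stayed below. PRKG1, the kinase activated by cyclic GMP, had 69.6 CPM in cow WAT, 1086 in mesPVAT and 1146 in RP fat, 15.6-fold (95% interval 14.3 to 17.0) lower in cow WAT, and lay below all 5 rat libraries. The soluble guanylate cyclase subunits parted, with GUCY1A2 at 52.9, 272 and 304 CPM and GUCY1B1 at 218, 28.0 and 38.0 CPM. NOS3, the endothelial nitric oxide synthase, had 34.2, 162 and 97.6 CPM, but was not below both with the study's filters on nuclei.

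Several thermogenic genes, which define brown adipocytes, were lower in cow WAT than in the rat white libraries. Of 12 tested, none lay above both and 6 below, beside 12.0% and 20.6% of all genes. Of the 6, 2 stayed below with mesPVAT on 10x added. UCP1, the uncoupling protein of brown fat, had 11 UMIs in cow WAT (0.904 CPM), against 89.0 CPM in mesPVAT and 137 in RP fat. It had 2319 CPM in taPVAT and 2693 in BAT, and 0.979 CPM in mesPVAT on 10x, at which cow WAT and that library were alike. CPT1B, the muscle and brown fat carnitine palmitoyltransferase, had 4.03, 45.8 and 56.0 CPM and lay below all 5 rat libraries. PPARGC1A, a coactivator of mitochondrial genes, had 39.1, 260.1 and 419 CPM. CIDEA, a lipid droplet protein, was level at 120.2, 84.7 and 72.3 CPM.

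Positional transcription factors mark the origin of mesenchymal cells along the body. Of 26 tested, 4 lay above both and 6 below, near the 12.0% and 20.6% of all genes, and those above also lay above all 5 rat libraries. With the study's filters on nuclei, TBX15 and PBX3 no longer lay above both. HOXD3 had 136, 11.9 and 12.7 CPM, TBX15, a factor of subcutaneous fat, 248, 51.7 and 79.6 CPM, and PRRX1, of limb and body wall mesenchyme, 500.1, 108 and 88.6 CPM. GATA4 and TBX20, factors of visceral mesoderm and heart, lay below both with 5.75, 22.9 and 38.0 CPM and 5.43, 20.3 and 45.2 CPM, but neither below all 4 rat Parse libraries nor below mesPVAT on 10x.

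The remaining lists are given by their counts, to be set beside the 12.0% above and 20.6% below over all genes. Above and below both were 3 and 1 of 20 adipogenic transcription factors, 3 and 2 of 25 immediate early and stress genes, 2 and 2 of 10 antigen presentation genes, 2 and 7 of 37 Wnt, BMP and TGF-β genes, and 2 and 2 of 18 calcium, creatine and amino acid genes. The last held SLC7A10, an amino acid transporter of white adipocytes, with 2.22, 103 and 47.0 CPM, below all 5 rat libraries. The list of nuclear noncoding and sex-linked genes had no joined member.

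**Figure D3:**
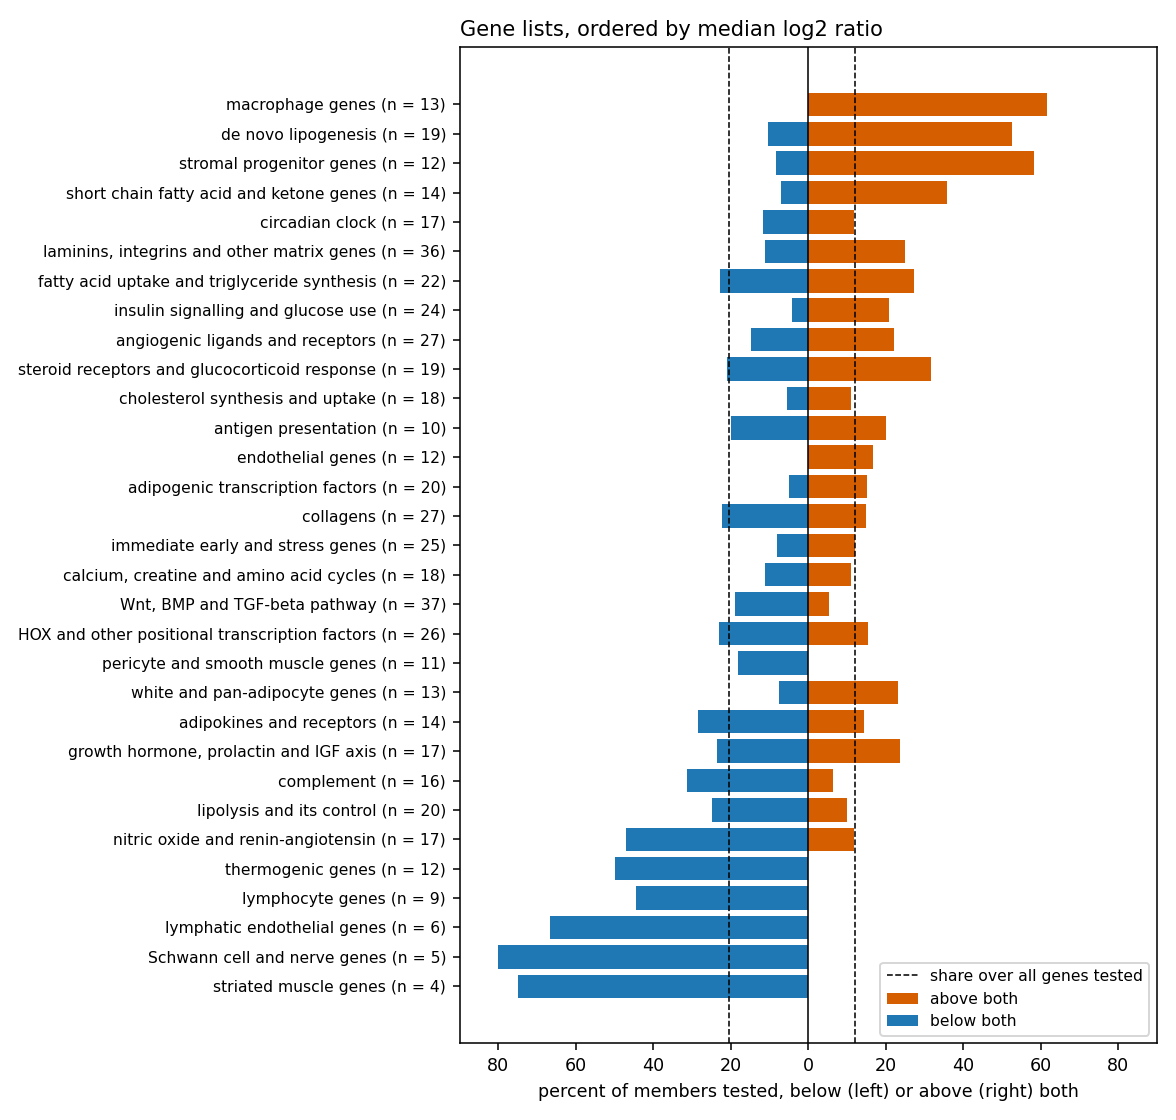
Percent of the tested members of each gene list with at least 4 of them that lay at least 2-fold above (right) or below (left) both rat white libraries, ordered by the median log2 ratio, with dashed lines at the shares over all genes, 12.0% and 20.6%. Macrophage, lipogenesis and stromal lists extend farthest to the right and nerve and muscle lists farthest to the left, the latter with 4 to 5 tested members each.

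Of the 12 genes farthest below both, FZD1 alone belongs to a gene list here. MAGEB18, a germline antigen gene, had 253 CPM in mesPVAT and 369 in RP fat and no UMI in cow WAT, so it was at least 1024-fold lower there with 3 counts as the limit. RP1, a photoreceptor gene, had 0.247 CPM in cow WAT, 189 in mesPVAT and 291 in RP fat. HTR1B, a serotonin receptor, had 0.247 CPM in cow WAT, 150.0 in mesPVAT and 264 in RP fat, and SOX21, a neural transcription factor, 0.0822, 94.9 and 121 CPM. FZD1, a Wnt receptor, had 1.56 CPM in cow WAT, 278 in mesPVAT and 485 in RP fat.

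The others of the 12 were the mesenchymal factor FOXF2 (0.411, 108 and 174 CPM), VWC2L (0.329, 88.1 and 116 CPM), SOBP (0.822, 156 and 206 CPM), FAM181B (0.0822, 65.2 and 86.8 CPM), the testis cytochrome CYCT (1.15, 167 and 282 CPM), RPL10L (0, 62.7 and 108 CPM) and RPRM (0.0822, 62.7 and 86.8 CPM). RPL10L and CYCT have close relatives elsewhere in the genome, and how reads were split between them is uncertain.

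These 12 genes shared a pattern across the rat libraries. In 11 of them, SOBP being the exception, both brown Parse libraries lay far below the white ones in CPM, as for MAGEB18 with 34.4 CPM in taPVAT and 33.3 in BAT and HTR1B with 19.6 CPM in taPVAT and 15.0 in BAT. Per nucleus the same genes were closer. MAGEB18 had 9.84 UMIs per 100 nuclei in mesPVAT, 7.27 in RP fat, 4.99 in taPVAT and 6.00 in BAT, and FZD1 had 10.8, 9.55, 6.68 and 5.63. MAGEB18, SOX21, FZD1, FAM181B and RPL10L had no UMI in mesPVAT on 10x. SOBP was instead high in all rat Parse libraries, with 165 CPM in taPVAT and 232 in BAT.

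**Figure D4:**
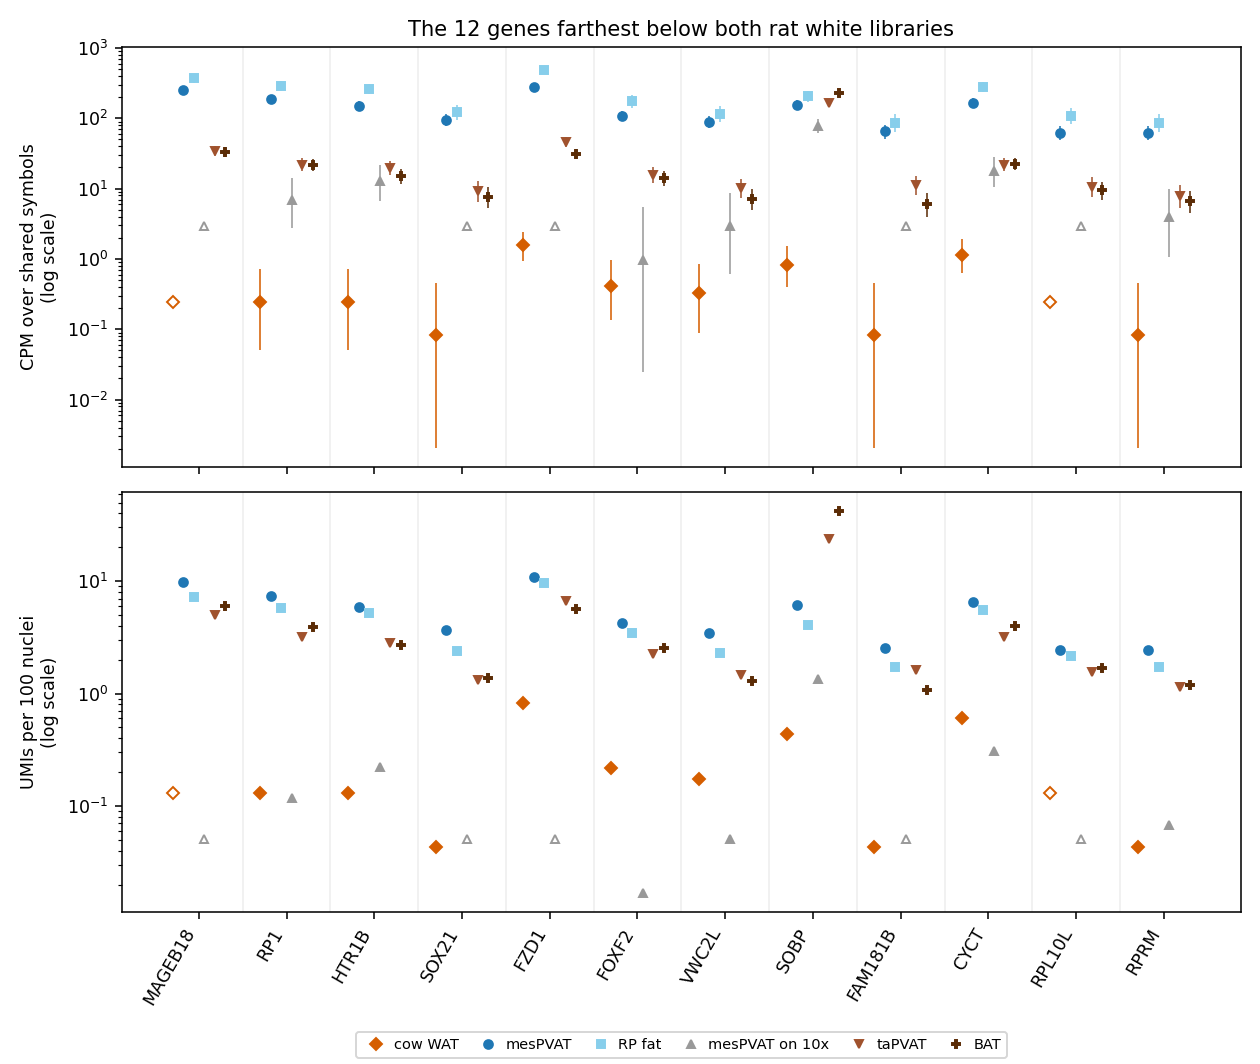
The 12 genes with the lowest cow level relative to both rat white libraries, as CPM over shared symbols with exact 95% Poisson intervals (top) and as UMIs per 100 nuclei (bottom), both on log scales, where open symbols mark libraries with no UMI, drawn at 3 counts. In the top panel mesPVAT and RP fat lie above taPVAT and BAT for all genes but SOBP, and in the bottom panel the 4 rat Parse libraries lie close together for those genes.

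The same held for the genes below both as a class. Their median log2 ratio of rat white to rat brown level was 2.10, against 0.26 over all genes and -0.09 for the genes above both. Of them, 51.2% were at least 4-fold higher in rat white than in rat brown fat, against 16.9% of all genes and 4.30% of the genes above. The rat white levels enter both ratios, so this is a description. When genes at least 2-fold higher in rat white than brown fat were left out, 1110 of 7682 genes lay above both and 766 below. FASN, ACACA, PLIN1, PCK1 and ADRB3 all had higher levels in brown than in white rat libraries and were not among those left out. SCD was left out, with 11.9 CPM in mesPVAT and 18.1 in RP fat, against 5.10 in taPVAT and 3.70 in BAT. What part the shallow coverage of the rat white nuclei had in these values was not tested.

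**Figure D5:**
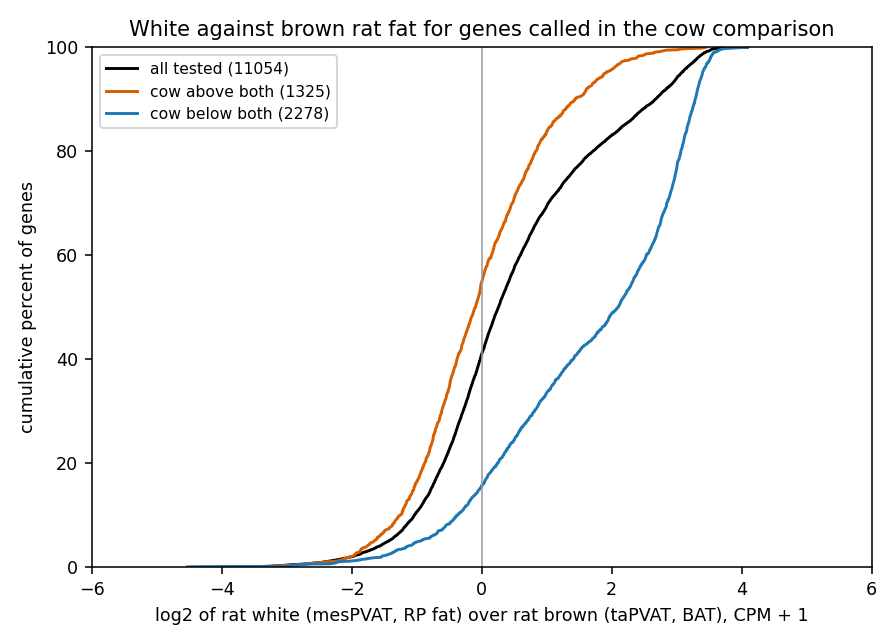
Cumulative percent of genes against the log2 ratio of rat white (mesPVAT and RP fat) to rat brown (taPVAT and BAT) level with 1 CPM added, for all 11054 genes, the 1325 above both and the 2278 below both. The curve of the genes below lies to the right of the others, with a median of 2.10, and that of the genes above lies to the left, with a median of -0.09.

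The span of a gene in the rat genome also went with the calls. Genes below both had a median RefSeq span of 59.7 kb, against 36.9 kb over all genes and 33.4 kb for the genes above. The share below both was 18.1% of 470 genes under 5 kb, 11.3% of 2794 genes of 5 to 20 kb, 20.8% of 5493 genes of 20 to 100 kb and 32.0% of 2290 longer genes. The genes below all 5 rat libraries had a median span of 27.2 kb. Gene models differ between the species, and their part in single ratios was not tested.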

How the data were processed

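Nuclei from frozen rat and cow fat were sequenced with Parse Evercode WT, or with 10x 3' v3 for 1 mesPVAT library. For Parse, the authors split reads by species, aligned them to GRCr8 or ARS-UCD1.3 with the Parse split-pipe pipeline, and deposited raw UMI counts per gene and barcode of the filtered matrix, with UMI counts per barcode, without normalization. The 10x library was aligned by the authors with Cell Ranger to an older rat build, and its gene table lacked 353 shared symbols. The authors called doublets and filtered nuclei after this step, which the deposited counts precede.

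From these counts, UMIs were summed over all deposited nuclei per upper-case symbol, leaving out genes named by identifier alone, and scaled to CPM over the 15240 shared symbols. UMI counts on other genes were 27.7% in cow WAT, 28.8% in mesPVAT and 34.6% in RP fat. Ratios used UMI counts as they were, except that a count under 3 was set to 3 in the library divided by. Log2 ratios added 1 CPM. Groups came from the labels. With 1 library per tissue no test was run, and intervals (exact Poisson and binomial, 95%) cover counting error only. The calling step was tested on simulated data. Named genes were the 12 farthest above and the 12 farthest below both, ranked by the interval bound nearest to 1, and members of 35 gene lists. Some named genes are counted but not reported here. The comparison, lists and members were chosen with earlier results of these data known. The rat white libraries are called by their labels, although the study's text gives their median UMIs per nucleus in the other order than the files, and exchanging the labels would exchange their values but change no call. Alternatives concerned the minimum, fold, scaling, nuclei, sublibraries, libraries, symbols and depth. Python 3.11.15, numpy 2.4.6, scipy 1.17.1, pandas 2.3.3 and matplotlib 3.10.9 were used, with seed 20. Promoters and gene spans came from RefSeq (GRCr8).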

Additional observations from a re-analysis of the deposited data

Results flagged for a closer look

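Part of the signal lay on genes that the comparison could not use, because their symbols were not shared or they were named by identifier alone. These held 27.7% of UMIs in cow WAT, 28.8% in mesPVAT and 34.6% in RP fat. In cow WAT, a single gene named by identifier alone, ENSBTAG00000066082, held 11.1% of all UMIs. In mesPVAT, ENSRNOG00000087169 held 5.33% of UMIs, and in RP fat it held 1.59%, behind ENSRNOG00000088851 with 2.14%. What these genes are is not paired with a symbol in the files, and their part in the ratios was not tested.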

How the results depend on the processing

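No paired analysis was possible because each tissue was 1 library. The number of genes above both was 2355 at 1.5-fold, 261 at 4-fold, 869 against all 4 rat Parse libraries, 815 with mesPVAT on 10x added and, chosen after seeing the data, 646 against all 5. The number below both was 3696 with a minimum of 30 UMIs, 992 with 300, 835 at 4-fold, 738 against all 4 rat Parse libraries, 679 with mesPVAT on 10x and, chosen after seeing the data, 458 against all 5 and 766 without genes at least 2-fold higher in rat white than brown fat. The minimum of 30 UMIs left 1325 above. The median log2 ratio was -0.33 with 30 UMIs, 0.19 with 300, -0.14 with a mean of at least 20 CPM, -0.0113 with median-of-ratios scaling, -0.00847 with CPM over all genes, -0.0428 with each nucleus weighing the same, -0.14 with mesPVAT on 10x and 0.17 without the genes higher in rat white fat, the last chosen after seeing the data. Against RP fat alone or mesPVAT alone, 1975 and 1972 genes lay above and 2967 and 2810 below, with a median of -0.07 in both. The other settings moved each count by less than 1.5 times and kept the median negative. The share of calls that lay above was 36.8%, and 54.7% with the minimum of 300 UMIs, 26.4% with 30, 42.8% at 1.5-fold, 23.8% at 4-fold, 54.1% against all 4 rat Parse libraries, 54.6% with mesPVAT on 10x, 58.5% against all 5 and 59.2% without the genes higher in rat white fat. Scaling moved it to 40.6% at most or 40.7% with CPM over all genes. For the 204 named genes called, 3461 values stayed within their counting interval. They include all values under another minimum or fold, settings that cannot change a ratio, so those stayed by construction. Another 543 moved further, while 3 crossed to the other side of the nearer rat library. These were GHR with the study's filters on nuclei (0.927 of that library), and LUM (0.938) and HOXB4 (ratio turned to 0.662) in nuclei with at least 500 UMIs, and the cause was not tested. With taPVAT and BAT added, cow WAT lay on the other side of at least 1 rat library for 8 named genes above and 29 below, and with mesPVAT on 10x added for 15 and 32. Depth limits the rat values, where a single UMI in RP fat is 1.81 CPM.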

Other observations

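Olfactory receptor genes, which are read in sensory neurons of the nose, were looked at after their values had been seen. The 180 joined symbols summed to 67.7 CPM in cow WAT, 232 in mesPVAT and 342 in RP fat, and to 29.4 CPM in mesPVAT on 10x, 32.9 in taPVAT and 31.3 in BAT. Of these, 4 passed the minimum of 100 UMIs, which the deeper cow library reaches more easily, so no count of calls is read from them.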
